A study of Homo sapiens with 8 samples.

Results

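The nectin adhesion family comprised 6 of the 58233 gene identifiers counted in irradiated and untreated breast epithelial cells: the receptors NECTIN1, NECTIN2, NECTIN3, NECTIN4 and PVR, and the adaptor AFDN. NECTIN4 was chosen by its measured values, as one of the genes with the strongest increase after ionizing radiation (IR), and the other 5 members were added by family name whatever their response. The levels of NECTIN4 after IR, and the difference of its IR responses between genotypes, are therefore given as a description without a test. Its comparisons between genotypes in untreated and in irradiated cells were not used for that choice. They share its libraries, however, so their p-values are not independent of it. The comparisons of the other 5 members did not enter that choice.

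Nectins are immunoglobulin-like membrane proteins that bind one another across cell-cell contacts, with partners of the same or of another family member. The cytoplasmic ends of NECTIN1, NECTIN2, NECTIN3 and NECTIN4 bind afadin, the product of AFDN. Afadin couples them to actin filaments and brings them together with E-cadherin at adherens junctions of epithelia. NECTIN2 and PVR are also ligands of receptors on T and natural killer cells, and NECTIN4 is scarce in most adult tissues, frequent in breast and bladder carcinoma, and the target of an antibody-drug conjugate.

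The cells were MCF10A-Hras, a non-tumorigenic human breast epithelial line transformed with H-Ras, so that both genotypes carried the oncogene. Control cells and cells with a CRISPR knockout of the splicing factor RBM6 (RBM6-KO) were either left untreated or collected 12 h after 5 Gy of IR. Each of the 4 groups had 2 biological replicates, A and B, which gave 8 polyA RNA-seq libraries. The study's methods describe the knockout as a clone made with a Cas9 nickase and paired guide RNAs, so a genotype difference may also be a difference between clones.

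The libraries held 15355281 to 29832009 counts, and a count of 3 corresponded to 0.0966 to 0.204 CPM (counts scaled to a common library size). RBM6 mRNA was 66.9 and 68.8 CPM in untreated control cells and 61.5 and 63.2 CPM in untreated RBM6-KO cells, and 54.5 and 48.9 against 44.01 and 33.9 CPM after IR, so its transcript level does not check the genotype labels. CDKN1A, the p53-driven inhibitor of the cell cycle, rose after IR by 1.80 (log2 scale, SE 0.17, edgeR adjusted p = 0.000536) in control and by 2.02 (SE 0.14, edgeR adjusted p = 0.00051) in RBM6-KO cells. The basal keratinocyte marker KRT5 and other epithelial markers were abundant, with a summed level of 1784 to 2727 CPM, against 0.388 to 1.07 CPM for 7 lymphocyte markers, of which 3 to 6 were at 0 in both libraries of a group and CD3E, CD2 and NKG7 were at 0 in all 8. Among the 8 epithelial markers, EPCAM, an adhesion molecule, was lower by 1.79 (log2 scale, SE 0.22, edgeR adjusted p = 4.4e-05) in untreated RBM6-KO than in untreated control cells. In irradiated RBM6-KO against irradiated control cells it was lower by 1.82 (SE 0.22, edgeR adjusted p = 0.0151). Without reaching 2-fold, KRT14, a basal keratin, was higher by 0.78 (edgeR adjusted p = 0.0156) and KRT18, a luminal keratin, lower (-0.63, edgeR adjusted p = 0.0175) in untreated RBM6-KO cells. KRT5, KRT17 and TP63 of the same list did not follow KRT14, at 0.04, 0.29 and -0.14 there. Between irradiated genotypes they were at -0.47, -0.37 and -0.32, where KRT14 was at 0.75 and KRT18 at -0.56, none called. The summed level of 6 fibroblast markers was 81.0 to 108 CPM in control and 119 to 211 CPM in RBM6-KO libraries, mostly DCN. DCN was 68.1 CPM in control against 129 CPM in RBM6-KO cells untreated and 86.3 against 186 CPM after IR, where it was called (log2 fold change 1.11, edgeR adjusted p = 0.0389), whereas COL1A1 was 13.0 against 7.78 and 11.8 against 5.25 CPM without a call. COL1A2 and COL3A1 had 0 or 1 count. Of 5 endothelial markers, summing to 4.28 to 12.4 CPM, CDH5 had 0 to 4 counts and VWF 0 to 4. KDR fell in RBM6-KO cells, with 0 to 19 against 65 to 309 counts (edgeR adjusted p = 0.00038 untreated and 0.0264 after IR), while PECAM1 had a higher level there, 4.74 against 2.07 CPM untreated and 3.94 against 1.37 CPM after IR, without a call. After IR in control cells, PDGFRB of the fibroblast list and TEK of the endothelial list rose, from 1 to 5 and 3 counts a library to 17 and 53 and to 12 and 38 counts (edgeR adjusted p = 0.0264 and 0.0367). The part of these marker differences in the results was not tested. In these bulk libraries, fewer cells expressing a gene and less RNA per cell cannot be told apart.

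All 6 members passed the filter on low counts in every comparison. In GENCODE v44 on GRCh38, NECTIN4 (ENSG00000143217) is a protein-coding gene on the minus strand at chr1:161070998-161089558. NECTIN1 (ENSG00000110400) is on the minus strand at chr11:119623408-119729200, and NECTIN3 (ENSG00000177707) on the plus strand at chr3:111070071-111275563. PVR (ENSG00000073008) and NECTIN2 (ENSG00000130202) are both on the plus strand of chromosome 19, at chr19:44643798-44666162 and chr19:44846175-44889223. AFDN (ENSG00000130396) is on the plus strand at chr6:167826893-167972023.

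The 250 bases before the RefSeq start of NECTIN4 are shown because this gene had the largest IR difference of the 6 members. The window is chr1:161089559-161089808 of GRCh38.p14, given on the minus strand, 5′ to 3′, and it ends at the base before the start site. Capitals mark matches to a GC box (GGGCGG on either strand) and to an E-box (CANNTG).
NECTIN4 upstream window: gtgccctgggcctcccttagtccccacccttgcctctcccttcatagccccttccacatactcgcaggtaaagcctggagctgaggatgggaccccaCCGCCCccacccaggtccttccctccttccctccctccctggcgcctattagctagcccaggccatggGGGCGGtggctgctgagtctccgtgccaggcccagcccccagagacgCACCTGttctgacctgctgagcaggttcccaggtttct
The window held 2 GC boxes, at -153 to -148 and -85 to -80 from the start, and 1 E-box at -38 to -33. On either strand, no match was found to the decameric p53 motif, to the AP-1 motif (TGANTCA) or to the TATA box (TATAAA). The CCAAT box, searched as these 5 letters, was not found either. Of 35116 RefSeq promoter windows of the same length, 5.57% held the p53 motif, 6.57% an AP-1 motif, 10.7% a TATA box, 32.01% a CCAAT box, 42.6% a GC box and 61.8% an E-box, and no motif overlapped another in the NECTIN4 window. The absence of a match concerns these 250 bases alone. Windows were matched for 5 of the 6 members, all but NECTIN1, and none of the other 4 held the p53 or AP-1 motif either. NECTIN4 had 6 CG dinucleotides in its window, fewer than NECTIN2 with 19, NECTIN3 and PVR with 27 each and AFDN with 41, and fewer than the median of 11 over all windows. The GC box was found 3 times for NECTIN2, 5 times for NECTIN3, 1 time for AFDN and not for PVR.

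NECTIN4 was a low transcript before IR and was 6.87-fold higher in control and 6.70-fold higher in RBM6-KO cells at 12 h after IR. Untreated control libraries A and B had 110 and 102 NECTIN4 counts, or 6.75 and 5.47 normalized CPM. After IR the control libraries had 667 and 1281 counts, or 43.2 and 41.2 CPM. The group means were 6.11 ± 0.906 and 42.2 ± 1.38 CPM (SD, n = 2 each), so the irradiated pair lay far above the untreated pair and the groups did not overlap. RBM6-KO libraries gave 86 and 74 counts untreated (4.84 and 5.03 CPM) and 665 and 666 counts after IR (34.3 and 32.6 CPM), with means of 4.94 ± 0.136 and 33.5 ± 1.20 CPM. The log2 fold change was 2.78 (SE 0.23, 6.87-fold) in control and 2.74 (SE 0.20, 6.70-fold) in RBM6-KO cells. By p-value NECTIN4 was the second of 15412 genes in control and the third of 15598 genes in RBM6-KO cells, and by fold change number 20 and number 15, ranks which restate why it was chosen.

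The family relatives of NECTIN4 did not share a response of that size. Calls required at least a 2-fold change together with an adjusted p under 0.05. Over all genes, 1.68% were called higher and 1.91% lower after IR in control cells, and 1.13% higher and 1.97% lower in RBM6-KO cells. None of the other 5 members was called in either genotype, and their median log2 fold changes were 0.28 and 0.06 beside 0.02 and -0.01 for all genes tested. The groups did not overlap for 4 members in control cells (NECTIN1, NECTIN2, NECTIN4 and PVR) and for 4 in RBM6-KO cells (NECTIN3, NECTIN4, PVR and AFDN), beside 57.1% and 62.1% of all genes without overlap. With 2 libraries against 2, an exact permutation test of a single gene cannot give a two-sided p below 0.333.

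NECTIN3, the receptor that pairs most strongly with NECTIN1, had the next-highest estimate in both genotypes. It went from 17.6 and 12.4 CPM in control libraries A and B to 17.5 and 28.3 CPM after IR, so only library B stood above the untreated pair. In RBM6-KO cells it went from 23.0 and 19.7 to 26.8 and 39.2 CPM, with both irradiated libraries above the untreated ones. The log2 fold change was 0.61 in each genotype (SE 0.27, edgeR adjusted p = 0.187 in control; SE 0.22, edgeR adjusted p = 0.102 in RBM6-KO). These estimates did not pass the threshold, and their 95% intervals, 0.02 to 1.21 and 0.13 to 1.09, reach beyond a 2-fold rise.

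NECTIN1, the most abundant nectin here and an entry receptor of herpes simplex virus, was 219.5 and 252 CPM in untreated and 296 and 303 CPM in irradiated control libraries. Both irradiated libraries were higher, with a log2 fold change of 0.33 (SE 0.16, edgeR adjusted p = 0.210). In RBM6-KO cells NECTIN1 was 183 and 164 CPM untreated and 163 and 202 CPM after IR, which overlapped (log2 fold change 0.06, SE 0.16, edgeR adjusted p = 0.833). PVR, the poliovirus receptor CD155, was 75.0 and 84.2 CPM untreated and 102 and 92.9 CPM after IR in control cells, and 73.5 and 73.5 against 79.2 and 89.2 CPM in RBM6-KO cells. Its log2 fold changes were 0.28 (SE 0.16) and 0.18 (SE 0.15), with edgeR adjusted p = 0.299 and 0.445. Irradiated libraries were above untreated ones in both genotypes, by less than the test could call.

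NECTIN2, or CD112, and AFDN had negative estimates in both genotypes. NECTIN2 was 91.2 and 101 CPM untreated against 90.1 and 72.0 CPM after IR in control cells, and 66.1 and 73.5 against 72.4 and 59.3 CPM in RBM6-KO cells. Only the control groups did not overlap, and there narrowly, with log2 fold changes of -0.25 (SE 0.17) and -0.10 (SE 0.16). AFDN was 86.9 and 72.5 against 56.3 and 79.4 CPM in control cells, and 76.4 and 80.6 against 58.4 and 70.6 CPM in RBM6-KO cells, with log2 fold changes of -0.24 (SE 0.20) and -0.30 (SE 0.16). No adjusted p of these 4 comparisons was below 0.235 (edgeR). The 95% intervals of NECTIN1, NECTIN2, PVR and AFDN lay within a 2-fold change in both genotypes, the widest reaching 0.68 and -0.67 on the log2 scale.

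**Figure D1:**
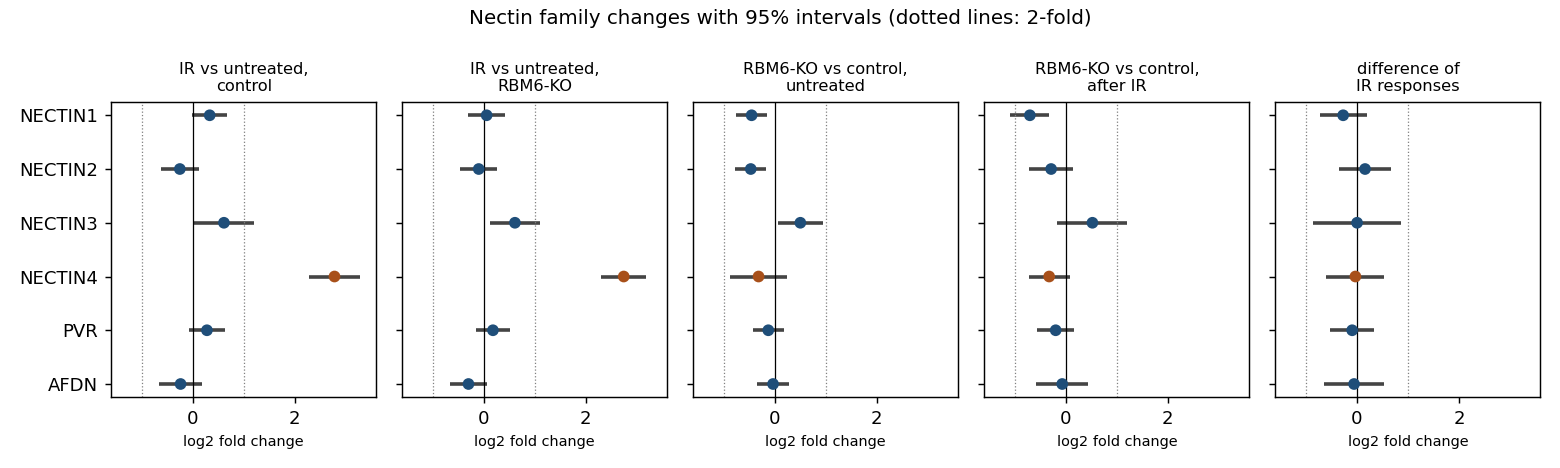
Log2 fold changes with 95% intervals from the edgeR fits for the 6 members in the 4 comparisons and for the difference of the IR responses (RBM6-KO minus control); dotted lines mark 2-fold. NECTIN4 (brown), chosen for its IR response, lies at 2.78 and 2.74 after IR, and the other members (blue) lie between -0.30 and 0.61 there.

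Scaled by gene length, NECTIN4 moved from the least abundant receptors before IR to the third place after it. In CPM per kilobase of annotated exon, untreated control cells had NECTIN1 at 30.2 ± 2.97, NECTIN2 at 25.6 ± 1.77, PVR at 7.63 ± 0.628 and AFDN at 5.79 ± 0.740 (SD, n = 2 each), followed by NECTIN3 at 1.94 ± 0.468 and NECTIN4 at 1.77 ± 0.262. NECTIN3 and NECTIN4 overlapped between libraries and could not be ordered. After IR, NECTIN4 was the third at 12.2 ± 0.398, below NECTIN2 at 21.7 ± 3.405 and above PVR at 9.32 ± 0.584. In untreated RBM6-KO cells NECTIN4 was last at 1.43 ± 0.0394, below NECTIN3 at 2.77 ± 0.297. After IR it was the third there too, at 9.68 ± 0.346 against 8.08 ± 0.684 for PVR, while AFDN and NECTIN3, at 4.69 ± 0.629 and 4.28 ± 1.14, overlapped. The place of NECTIN4 above PVR depends on the length used, since with the longest annotated transcript PVR was at 15.03 and NECTIN4 at 12.2 CPM per kilobase in irradiated control cells, and at 13.0 and 9.68 in irradiated RBM6-KO cells.

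NECTIN4 made up 3.06% and 2.25% of the summed per-kilobase level of the 5 receptors in untreated control libraries, and 14.5% in each irradiated one. In RBM6-KO libraries its share was 2.67% and 2.81% untreated and 16.2% and 14.6% after IR. The share of NECTIN2 was 38.1% in both untreated control libraries and 27.9% and 23.3% after IR, and in RBM6-KO libraries 33.7% and 37.96% against 31.6% and 24.5%. NECTIN1 remained the largest component in all 8 libraries, at 34.1% to 46.9%. These shares follow from the choice of NECTIN4 and carry no test.

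In untreated RBM6-KO cells 5 of the 6 members had lower estimates than in control cells, none of which was called. NECTIN1 was 219.5 and 252 CPM in control and 183 and 164 CPM in RBM6-KO libraries, with a log2 fold change of -0.45 (SE 0.14, edgeR adjusted p = 0.0707). NECTIN2 went from 91.2 and 101 to 66.1 and 73.5 CPM, with a log2 fold change of -0.47 (SE 0.15, edgeR adjusted p = 0.0669). Both pairs of libraries lay apart, and both values missed the threshold on adjusted p as well as the 2-fold limit. NECTIN4 was lower by less (log2 fold change -0.32, SE 0.26, edgeR adjusted p = 0.597), from 6.75 and 5.47 to 4.84 and 5.03 CPM. PVR (-0.13, SE 0.15) and AFDN (-0.03, SE 0.15) were closer to 0, with edgeR adjusted p = 0.736 and 0.942. NECTIN3 was the exception in sign, at 17.6 and 12.4 CPM in control and 23.0 and 19.7 CPM in RBM6-KO cells (log2 fold change 0.50, SE 0.21, edgeR adjusted p = 0.207). Groups did not overlap for 5 members, all but AFDN, beside 47.7% of all genes. Over all genes, 1.16% were called higher and 1.97% lower.

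After IR the same signs were seen, and again no member was called. NECTIN1 was 296 and 303 CPM in control against 163 and 202 CPM in RBM6-KO cells, the largest genotype difference of the family (log2 fold change -0.71, SE 0.16, 95% interval -1.09 to -0.32, edgeR adjusted p = 0.116). Its irradiated RBM6-KO libraries lay below all 4 control libraries. NECTIN4 was 43.2 and 41.2 CPM in control and 34.3 and 32.6 CPM in RBM6-KO cells, without overlap (log2 fold change -0.33, SE 0.17, 95% interval -0.73 to 0.07, edgeR adjusted p = 0.573). NECTIN2 (-0.29, SE 0.19), PVR (-0.20, SE 0.16) and AFDN (-0.07, SE 0.22) had edgeR adjusted p = 0.687, 0.762 and 0.968, and NECTIN3 was higher by 0.52 (SE 0.29, edgeR adjusted p = 0.616). The groups did not overlap for 3 members (NECTIN1, NECTIN4 and PVR) beside 38.7% of all genes, of which 0.353% were called higher and 0.815% lower.

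Whether RBM6 loss changed the IR response itself was tested as the difference of the 2 fold changes over all 8 libraries. For NECTIN4 it was -0.03 on the log2 scale (SE 0.26, 95% interval -0.60 to 0.54). This value is built from the IR responses by which NECTIN4 was chosen, so it is a description without a test. The interval is within a 2-fold difference of the responses and does not show that they were alike. NECTIN1 had the largest estimate, -0.27 (SE 0.21, interval -0.73 to 0.19), and the other 4 members lay between -0.09 and 0.16. The edgeR adjusted p was 1.0 for NECTIN1 and for each of these 4. In this contrast 0 of 16549 genes, 0%, were called by edgeR, with 306 at an unadjusted p under 0.05, and DESeq2 also called 0, with 164 at an unadjusted p under 0.05.

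Members differed in how closely the 2 libraries of a group matched. The log2 difference of library B from library A was correlated with GC content across 16417 genes (Spearman correlation 0.39, -0.38, 0.15 and -0.23 in untreated control, irradiated control, untreated RBM6-KO and irradiated RBM6-KO cells) and with exon length (-0.17, 0.37, -0.21 and 0.32). Genes are not independent replicates. NECTIN3, whose longest transcript has 35.3% GC, lower than in all but 2.23% of genes, differed by -0.49, 0.69, -0.22 and 0.55 in these groups. NECTIN4, at 55.5% GC, differed by -0.30, -0.07, 0.06 and -0.07, and PVR, at 52.3% GC, by 0.17, -0.13, 0.0004 and 0.17. AFDN, at 47.8% GC, differed by -0.26, 0.50, 0.08 and 0.27. NECTIN2 and NECTIN1, at 60.8% and 60.7% GC, did not differ alike, with 0.14, -0.32, 0.15 and -0.29 for NECTIN2 and 0.20, 0.03, -0.15 and 0.31 for NECTIN1.

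The comparisons between groups carried a similar trend. Fold changes had a Spearman correlation with GC of -0.26 and -0.24 for IR in control and RBM6-KO cells. It was -0.29 and -0.31 for genotype in untreated and irradiated cells, but 0.01 for the difference of IR responses. With exon length the correlation was 0.29 and 0.27 for IR, 0.008 and 0.003 for genotype, and -0.03 for the difference of IR responses. Genes with 33 to 38% GC, like NECTIN3, had median log2 fold changes of 0.15, 0.16, 0.19 and 0.24 in these 4 comparisons, where NECTIN3 had 0.61, 0.61, 0.50 and 0.52. Genes with 58 to 63% GC, like NECTIN1 and NECTIN2, had medians of -0.22, -0.21, -0.10 and -0.09. NECTIN2 lay near that median after IR (-0.25 and -0.10) and below it between genotypes (-0.47 and -0.29), while NECTIN1 lay above it after IR (0.33 and 0.06) and below it between genotypes (-0.45 and -0.71). The part of base composition or exon length in these differences was not tested, and the GC ranges were chosen after the members' values were seen.

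**Figure D2:**
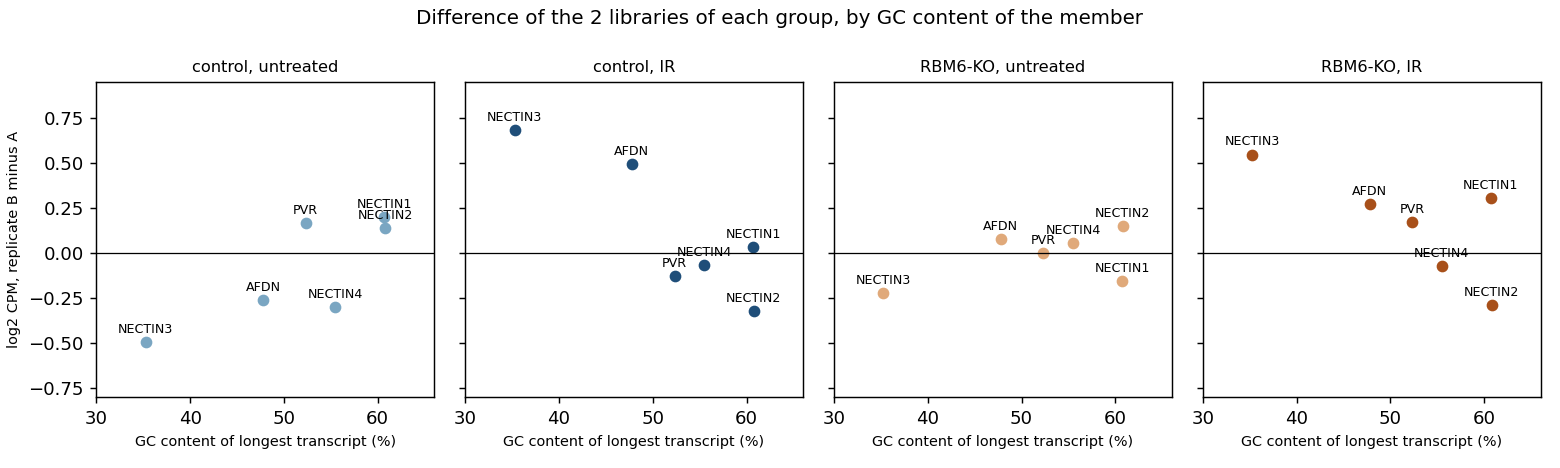
Log2 CPM of library B minus library A in each group, plotted against the GC content (%) of each member's longest transcript. NECTIN3, at 35.3% GC, lies lowest in untreated groups (-0.49 and -0.22) and highest in irradiated groups (0.69 and 0.55), whereas NECTIN4 lies between -0.30 and 0.06.

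Transcripts of genes that overlap the members were mostly scarce. NECTIN4-AS1, which lies within NECTIN4 on the opposite strand, had 0 to 3 counts a library, NECTIN3-AS1 0 to 10, and NECTIN1-AS1 0 to 2. PVR overlaps CEACAM19, with 136 to 411 counts, and ENSG00000279095, with 231 to 399 counts, on its own strand at its end. Because the counting rule is not given in the sources used here, reads of that stretch may have been assigned to either gene, and PVR levels are uncertain to that degree.

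Across the 8 libraries, the genes whose log2 CPM had the highest Pearson correlation with NECTIN4, of 13808 genes, were APOBEC3F (Pearson's r = 0.997, Spearman correlation 0.98), CDKN1A (0.994, 0.88), ACTA2 (0.993, 0.83), DNAI3 (0.992, 0.88) and LY6D (0.992, 0.93). By Spearman correlation the order was another: GPC1 was first (1.0, number 623 by Pearson), APOBEC3F shared second place, and LY6D, CDKN1A, DNAI3 and ACTA2 were numbers 73, 263, 263 and 437. The 5 genes separated irradiated from untreated libraries, which is what the correlation measures here, since the 8 points form an untreated and an irradiated cluster and share the IR contrast that chose NECTIN4. APOBEC3F, a cytidine deaminase, had a smaller log2 fold change of 0.81 in each genotype, and LY6D, a GPI-anchored surface protein of stratified epithelium, a larger one of 4.09 and 3.72 from a level of 0.295 and 0.249 CPM. ACTA2, the smooth muscle actin, had 1.30 and 1.52. Among 22 known p53 targets, 13 were called higher after IR in control and 11 in RBM6-KO cells, beside 1.68% and 1.13% of all genes. The median log2 fold changes of the targets were 1.16 and 1.012, beside 0.02 and -0.01 for all genes. NECTIN4, at 2.78 and 2.74, lay beside GDF15, a stress cytokine, at 2.62 and 2.93 and above BTG2, an antiproliferative factor, at 2.02 and 1.98.

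Most partners of the nectins at the adherens junction were present and did not pass the test after IR. The shares of all genes called after IR were 1.68% higher and 1.91% lower in control cells. In RBM6-KO cells they were 1.13% and 1.97%. The median log2 fold changes of all genes were 0.02 in control and -0.01 in RBM6-KO cells. Of 13 genes for factors that bind or signal to afadin, 0 of 13 tested were called after IR in control and 0 of 12 in RBM6-KO cells by edgeR, and 0 in either passed on adjusted p alone. Of 12 genes of the cadherin-catenin complex, 1 was called in control cells, CDH1, which encodes E-cadherin. CDH1 rose there from 19.2 to 43.8 CPM (log2 fold change 1.18, SE 0.23, edgeR adjusted p = 0.0162). In RBM6-KO cells it went from 14.0 to 23.6 CPM (0.73, SE 0.24, edgeR adjusted p = 0.0858), without a call. The list's median was 0.47 in control and 0.57 in RBM6-KO cells, with 10 and 11 of 12 estimates above 0. CTNND1, the gene of p120-catenin, passed on adjusted p alone in control cells (0.77, edgeR adjusted p = 0.0320). In RBM6-KO cells CTNND1 was at 0.65 (edgeR adjusted p = 0.0597). CLDN1, a claudin of the tight junction, was the 1 gene called of 17 tested tight junction and polarity genes in control cells. Its log2 fold change there was 1.203 (SE 0.29, edgeR adjusted p = 0.0367). In RBM6-KO cells 0 of 15 were called, and CLDN1 was at 0.85 (SE 0.23, edgeR adjusted p = 0.0571). The difference of IR responses was -0.44 (SE 0.35) for CDH1 and -0.35 (SE 0.39) for CLDN1. Neither call held in all settings. Without irradiated control library B the log2 fold change was 0.97 for CDH1, just under 2-fold, and 0.76 for CLDN1 (edgeR adjusted p = 0.11). Without 1 untreated control library, the edgeR adjusted p was 0.126 for CDH1 (A left out) and 0.175 for CLDN1 (B left out). Desmosome genes had medians of 0.57 and 0.41, with 0 of 10 called and DSG1 at 0 counts in all 8 libraries. Over all genes, IR fold changes correlated with exon length (Spearman correlation 0.29 in control and 0.27 in RBM6-KO cells). The part of exon length in the medians of these lists was not tested. On adjusted p alone, the desmosomal cadherin genes DSC3 (0.97, edgeR adjusted p = 0.0266) and DSG3 (0.77, edgeR adjusted p = 0.0459) passed in control cells. PERP (0.72, edgeR adjusted p = 0.0409) and EVPL (-0.64, edgeR adjusted p = 0.0494) passed in RBM6-KO cells. The estimates in the other genotype were 0.76 and 0.42 for DSC3 and DSG3, and 0.54 and -0.61 for PERP and EVPL. The sheddases ADAM9, ADAM10 and ADAM17, metalloproteases that can release ectodomains of membrane proteins including nectins, had estimates between 0.43 and 0.998 and no call at the 2-fold limit. On adjusted p alone, ADAM17 passed in control (0.96, edgeR adjusted p = 0.0482) and ADAM9 in RBM6-KO cells (0.998, edgeR adjusted p = 0.0371). ADAM17 was at 0.95 in RBM6-KO cells (edgeR adjusted p = 0.081), and ADAM9 at 0.49 in control cells (edgeR adjusted p = 0.309).

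Genotype differences were found in other adhesion genes. CADM4, a nectin-like molecule, fell by 1.51 in untreated RBM6-KO cells (log2 scale, SE 0.35, edgeR adjusted p = 0.0135), from 4.31 to 1.51 CPM. After IR it was at 8.60 against 3.57 CPM (log2 fold change -1.26, edgeR adjusted p = 0.0603), without a call. From untreated to irradiated cells CADM4 had a log2 fold change of 0.98 in control (edgeR adjusted p = 0.0570). In RBM6-KO cells it was 1.20 (edgeR adjusted p = 0.0622), neither of them called. CADM3 was at 0.03 in each genotype for IR. CADM3 was the abundant nectin-like molecule, at 688 to 2402 counts, whereas CADM1 had 0 counts in all 8 libraries, below the limit of 3 counts, and CADM2 0 to 3. PLEKHA7, a junctional adaptor that links afadin and p120-catenin, fell by 1.43 in untreated RBM6-KO cells (SE 0.34, edgeR adjusted p = 0.0150). Its log2 fold change after IR was -1.49 (SE 0.35, edgeR adjusted p = 0.118), without a call. Neither CADM4 nor PLEKHA7 was called without untreated control library B (edgeR adjusted p = 0.132 and 0.0936) or by DESeq2. JAM3, a junctional adhesion molecule, fell from 6.17 to 1.56 CPM untreated (log2 fold change -1.99, SE 0.31, edgeR adjusted p = 0.000587) and from 8.34 to 0.603 CPM after IR (-3.77, SE 0.30, edgeR adjusted p = 0.00505). CLDN7, a claudin, fell by 1.33 in untreated cells (SE 0.22, edgeR adjusted p = 0.000848). Its log2 fold change after IR was -0.94 (SE 0.22, edgeR adjusted p = 0.121), without a call. PPL, the desmosomal periplakin, fell by 1.498 untreated (SE 0.25, edgeR adjusted p = 0.0011) and dropped by 1.84 after IR (SE 0.22, edgeR adjusted p = 0.0151). In the cadherin-catenin list 11 of 12 estimates were below 0 in both genotype comparisons, with medians of -0.33 and -0.29 and no call. On adjusted p alone, CDH2 (-0.76, edgeR adjusted p = 0.0234) and CDH3 (-0.62, edgeR adjusted p = 0.0176) passed in untreated cells. So did the tight junction gene F11R (-0.64, edgeR adjusted p = 0.0166) and CADM3 (-0.66, edgeR adjusted p = 0.0115). After IR the estimates of CDH2, CDH3, F11R and CADM3 were -0.37, -0.50, -0.53 and -0.63, and none passed. With 0.01 and 0.02 as the medians of all genes, the medians of the 6 nectin family members were -0.22 and -0.24.

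**Figure D3:**
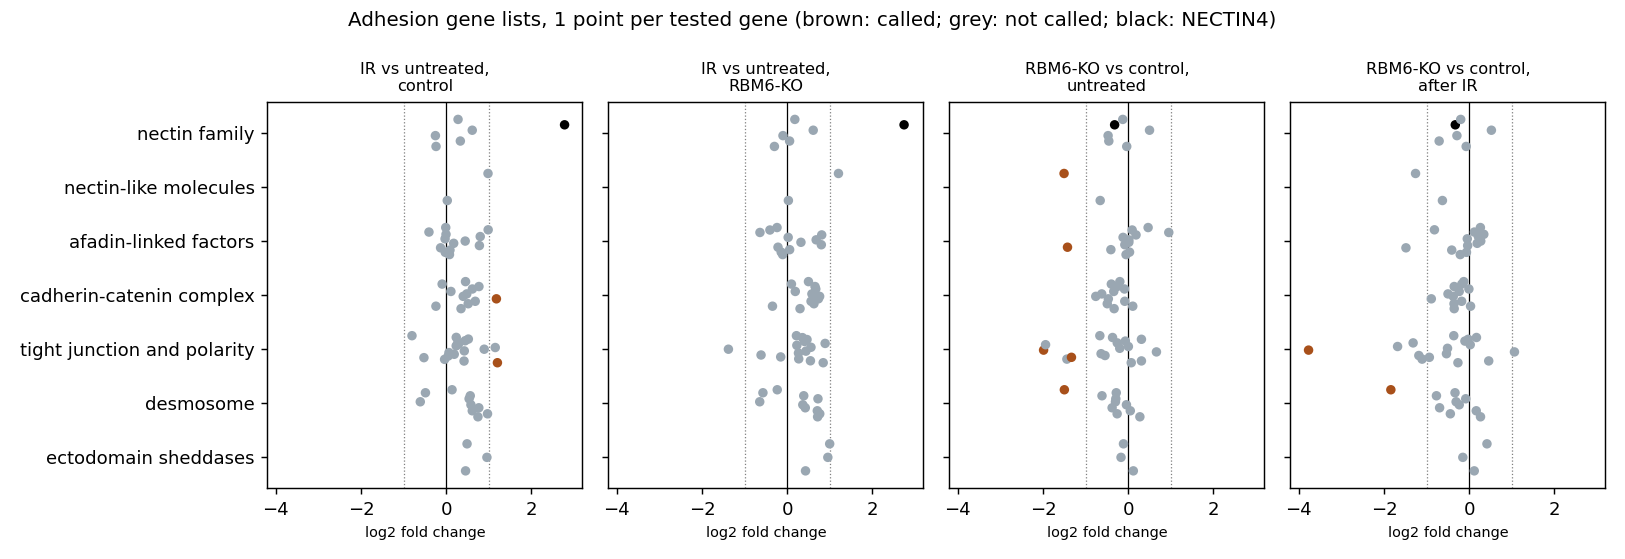
Log2 fold change of every tested gene in 7 adhesion gene lists, 1 point per gene, in the 4 comparisons; brown points are genes called at an adjusted p under 0.05 and at least 2-fold (dotted lines). NECTIN4, chosen for its IR response, is black and lies at 2.78 and 2.74 in the top row after IR, and brown points of the genotype comparisons, such as JAM3 at -3.77, all lie below 0.

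The receptors on lymphocytes that bind PVR, nectins or nectin-like molecules were near or at the detection limit. CRTAM had 0 counts in all libraries, TIGIT 0 to 1, CD96 0 to 6, PVRIG 0 to 13 and CD226 0 to 11. Their summed level was 0.0647 to 1.16 CPM, so the ligands PVR and NECTIN2, at 59.3 to 102 CPM, were measured in cultures in which their lymphocyte partners were hardly transcribed.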

How the data were processed

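PolyA RNA of 8 cultures was sequenced (Illumina, 150 bp paired ends). Per the labels, the authors' processing used hg38, STAR and DESeq2, and the deposited values are raw counts per Ensembl gene; the counting tool, annotation and strand setting are not given in the sources used here. Totals were 15355281 to 29832009 counts, and floors of 3 counts cover counting error only, while the 95% intervals of fold changes come from edgeR and include the spread between replicates.

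Counts were tested per pair of groups with edgeR 4.0.16 (R 4.3.3; TMM, filterByExpr, quasi-likelihood F-test, Benjamini-Hochberg over all genes tested), after the script recovered known changes on simulated data. A call was an adjusted p under 0.05 and a fold change of at least 2, the limits in the study's results for untreated knockout against control cells. The difference of IR responses was called on adjusted p alone. DESeq2 1.42.0, other scalings, filters, a replicate block and leaving out libraries were alternatives. Leaving out 1 library leaves 1 in its group, so such a fit measures no spread within that group. The p-values measure only the spread between these replicates, which differed by more than sampling noise within each group. Log2 CPM for correlations used a prior count of 2. Positions are from GENCODE v44, which held 57392 of the 58233 identifiers, and promoter windows from RefSeq (GRCh38.p14).

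The members and gene lists were chosen with earlier results of these data known. Named were all members, genes called in the other lists (at most 4 by p per list and comparison) or at 0 counts in all libraries, the 5 genes most correlated with NECTIN4, overlapping antisense genes, and RBM6, CDKN1A and GDF15. CADM3 and the genes whose edgeR result was not a call were named after their values were seen. Neighbouring genes are not reported here.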

Additional observations from a re-analysis of the deposited data

How the results depend on the processing

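None of the 5 relatives of NECTIN4 was called in any comparison under any alternative run, and NECTIN4 was not called between genotypes. The log2 fold change of NECTIN4 after IR, a description since it chose the gene, lay between 2.64 and 2.92 in control and between 2.71 and 2.79 in RBM6-KO cells. Among recomputed fold changes of the members, 18 changed sign, none of them a called value, and 354 kept their direction and side of the criteria. Leaving out 1 library at a time moved AFDN between -0.51 and 0.0025 for IR in control cells, NECTIN1 between -0.092 and 0.22 and NECTIN2 between -0.23 and 0.052 for IR in RBM6-KO cells, and AFDN between -0.15 and 0.10 (untreated) and -0.31 and 0.20 (after IR) for genotype. The difference of IR responses ranged from -0.30 to 0.43 for NECTIN3, -0.19 to 0.11 for NECTIN4 and -0.28 to 0.25 for AFDN. For NECTIN3 it was -0.019 with no filter and -0.011 with at least 10 counts in every library. The cause of these changes was not tested.

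The IR estimate of NECTIN3 rested on single libraries. With 1 library left out it ranged from 0.22 to 0.93 in control and from 0.32 to 0.88 in RBM6-KO cells. In RBM6-KO cells the edgeR adjusted p of NECTIN3 was 0.0286 with no filter. For IR in control cells, NECTIN1 lay between 0.22 and 0.44 with 1 library left out. For genotype after IR, NECTIN1 lay between -0.87 and -0.56 with 1 library left out. With no library left out, its adjusted p was 0.0403 by DESeq2, 0.0285 with all 8 libraries in 1 edgeR fit and 0.00547 with no filter. Those alternatives ranged from 0.000189 to 0.139. For genotype in untreated cells, NECTIN1 lay between -0.55 and -0.34 and NECTIN2 between -0.54 and -0.39 with 1 library left out.

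The letters A and B gave no pairing by the labels, and deviations of same-letter libraries correlated at -0.18 and -0.26 for IR against untreated in control and RBM6-KO cells, and at 0.079 and 0.35 for genotype in untreated and irradiated cells. With a replicate block, NECTIN1, NECTIN2, NECTIN3 and NECTIN4 had adjusted p of 0.000189, 0.0296, 0.00778 and 0.0433 for genotype after IR, and NECTIN1 and NECTIN2 0.039 and 0.0275 untreated, all below 2-fold, so no call of a member changed. The block called 541 genes in place of 182 for genotype after IR, and 637, 646 and 524 in place of 553, 485 and 486 for IR in control, IR in RBM6-KO and genotype in untreated cells. A crossed block, added after the data were seen, called 965 and 1222 genes for the IR comparisons.

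Counts over all genes moved by more than 1.5 times with no filter (962, 1011 and 506 for IR in control, IR in RBM6-KO and genotype after IR), for genotype after IR also by DESeq2 (280), with all 8 libraries (340) and with at least 10 counts in every library (71), and on adjusted p alone (881 for IR in control, 884 for IR in RBM6-KO and 952 for genotype in untreated cells). Leaving out a library gave 287 to 1406, 289 to 1563, 399 to 658 and 169 to 477 genes. At 0.0966 to 0.204 CPM for a count of 3, depth limits the statements on CADM1, CADM2 and the lymphocyte receptors, not those on the 6 family members.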
